A study of Mus musculus with 179 samples.

Results

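The mitochondrial ribosomal protein genes were the 76 genes whose symbol in the male VTA table was Mrpl or Mrps followed by a number and at most 1 letter, 47 Mrpl and 29 Mrps genes, out of 37991 genes in that table. They were matched by Ensembl identifier in the other tables, which gave 75 of them among 32421 genes for the prefrontal cortex (PFC), hippocampus (HIP) and all female libraries, and 48 among 16239 genes for the male nucleus accumbens (NAc). Members missing for male NAc were not simply the low ones. Mrpl3 was missing, with a mean of 2205 normalised reads in female NAc, and Mrps34 was present, with 197.4 in female NAc. Male NAc values thus rest on a different subset of members, and the reason was not tested. The one gene outside the 32421-gene table was Mrpl53, which was also listed at 0 RPKM in all 20 male VTA libraries, so 75 members could be tested at most. By known place in the ribosome, 49 members belong to the large subunit and 26 to the small subunit. Of the large-subunit members, 31 were classed as having a bacterial homologue and 18 as found in mitochondria only. Of the small-subunit members, 16 were classed as having a bacterial homologue and 10 as mitochondria-only. Mrps18a, Mrps18b and Mrps18c are all copies of the S18 protein. Even so, Mrps18b was put in the mitochondria-only class, and Mrps18a and Mrps18c in the other. The counts and medians of the classes keep this split. Mrps18a and Mrps30 carry small-subunit names but sit in the large subunit, and Mrps36 is now known as a subunit of the alpha-ketoglutarate dehydrogenase complex.

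Mitochondria translate the few proteins encoded by their own DNA, all of them subunits of the respiratory chain or of ATP synthase, on a ribosome of their own. Its RNAs come from mitochondrial DNA, whereas every one of its proteins is encoded in the nucleus, made in the cytosol and imported, so that building it needs nuclear and mitochondrial transcripts together. Neurons draw most of their ATP from this respiratory chain, and promoters of nuclear genes for mitochondrial proteins are known to be bound by NRF1, GABPA and YY1.

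The series asked how stress in early life changes the response of adult mouse brain to a second stress. Poly-A RNA was sequenced from adult tissue punches taken 24 hours after behavioural testing, in 163 libraries out of 179 samples, and the 16 samples of chromatin or input DNA were left aside. Mice stressed in both periods were set beside mice stressed in 1 period and in none. Each region gave the question of early life stress (ELS) alone, adult stress after standard rearing, adult stress after ELS, ELS history among stressed mice, and the interaction, which is the adult stress effect after ELS minus that after standard rearing.

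Females (C57Bl6/j) gave VTA (ventral tegmental area), NAc and PFC libraries of 1 mouse each, with 6 libraries per region after ELS on postnatal days 10 to 20 and adult sub-threshold variable stress (STVS), 5 after standard rearing and STVS, 5 after that ELS with no adult stress, and 6 after standard rearing with no adult stress. Males (C57Bl6/j) gave PFC and HIP libraries of 1 mouse each, 6 in each of ELS on days 10 to 20 with adult defeat, standard rearing with defeat, that ELS without defeat, and standard rearing without defeat. Male NAc libraries pooled punches of 3 mice and had 6 libraries of late ELS (days 10 to 20) with defeat, 5 of early ELS (days 2 to 12) with defeat, 6 of standard rearing with defeat, and 4 each of late ELS, early ELS and standard rearing without defeat. Male VTA libraries (C57BL/6) pooled 3 mice too, with 6 of ELS and chronic social defeat, 6 of standard rearing and defeat, 4 of ELS alone and 4 of standard rearing alone, and the labels used here give no days for that ELS. All mice were adult, males and females came from separate cohorts, so that sex and cohort cannot be told apart, and bulk punches cannot tell fewer cells of a type from less RNA per cell.

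Depth ran from 13601728 to 23863215 reads in male NAc and from 19185904 to 42746141 reads in the other libraries whose reads were recovered, and was unknown for male VTA. In the largest table, summed VTA, NAc and PFC markers had their highest medians in the regions of their labels. The HIP list did not, with a summed median of 28410 normalised reads in male HIP and 32560 in female NAc. In females the VTA list was higher by a median log2 difference of 8.31 in VTA than in PFC. The NAc list in females was higher by 4.50 in NAc than in PFC, and the HIP list in males by 2.65 in HIP than in PFC. Single libraries held more of another region's markers. Summed NAc markers reached 57730 normalised reads in male HIP (median 5701), summed VTA markers 10180 in male PFC (median 374.3) and summed PFC markers 19080 in female NAc (median 6273). No library was set aside by region markers. Of 114 libraries in the largest table, 14 stood apart or went against their labels by sex-linked genes (Xist over 200 normalised reads in a male library, Ddx3y over 50 or Xist under 0.5 of the median in a female one) or by Ttr, a choroid plexus transcript, over 10000. They are called doubted libraries in what follows, and were 6 of male HIP, 3 of male PFC, 2 each of female NAc and VTA, and 1 of female PFC. Values without them are given for members called between regions or sexes, and for the stress medians and differences of members described further on. Levels, residual SDs, counts above 0 and the values of other gene lists are given with all libraries. For the 5 largest differences in each direction of a region comparison, 40 in all, leaving out the doubted libraries moved Mrps6 by 0.116. The others of these 40 moved by at most 0.034 on the log2 scale. Further region differences of single members are given with all libraries only.

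For 67 of the 76 members RefSeq gave 73 promoters, each of 300 bases from 250 before to 50 after the start (GRCm38.p6); no entry was found for Mrpl4, Mrpl13, Mrpl15, Mrpl19, Mrpl38, Mrpl54, Mrps28, Mrps34 and Mrps35. The members' promoters had a median GC content of 58.3% and a median of 21 CpG sites, against 52.7% and 7 over all 32851 promoters. Exact 8-base motifs were searched on both strands. The NRF1 motif GCGCATGC was in 8 of 73 promoters (11%), against 2.71% of all promoters. The GABPA motif CCGGAAGT was in 12 (16.4%), against 3.89%, and the YY1 motif AAGATGGC also in 12 (16.4%), against 2.75%. At least 1 of the 3 motifs, none of which holds another, was in 29 member promoters (39.7%), against 8.83% of all promoters. Member promoters were richer in GC and CpG sites, as given above, and a match is a description of the letters only. The 4 promoters below each hold a motif and belong to members whose levels are given by region further on, and capitals mark the motif.
Mrpl17: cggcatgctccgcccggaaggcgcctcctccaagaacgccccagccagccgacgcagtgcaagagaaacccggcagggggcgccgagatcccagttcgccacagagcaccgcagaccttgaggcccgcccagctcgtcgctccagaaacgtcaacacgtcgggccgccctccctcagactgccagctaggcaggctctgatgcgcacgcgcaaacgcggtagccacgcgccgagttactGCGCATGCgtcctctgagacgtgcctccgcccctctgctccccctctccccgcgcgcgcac
Mrpl33: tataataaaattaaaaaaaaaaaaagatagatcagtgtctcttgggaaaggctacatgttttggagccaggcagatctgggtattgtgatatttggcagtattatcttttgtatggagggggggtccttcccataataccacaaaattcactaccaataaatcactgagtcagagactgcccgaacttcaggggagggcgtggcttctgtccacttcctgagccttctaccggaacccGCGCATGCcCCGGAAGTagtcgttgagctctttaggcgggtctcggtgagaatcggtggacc
Mrpl52: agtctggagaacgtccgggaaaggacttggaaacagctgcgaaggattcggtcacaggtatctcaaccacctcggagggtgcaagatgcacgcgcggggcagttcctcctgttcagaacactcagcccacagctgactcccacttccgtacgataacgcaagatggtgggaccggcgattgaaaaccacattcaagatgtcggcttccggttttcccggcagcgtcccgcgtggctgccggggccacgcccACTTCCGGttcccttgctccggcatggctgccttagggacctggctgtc
Mrps27: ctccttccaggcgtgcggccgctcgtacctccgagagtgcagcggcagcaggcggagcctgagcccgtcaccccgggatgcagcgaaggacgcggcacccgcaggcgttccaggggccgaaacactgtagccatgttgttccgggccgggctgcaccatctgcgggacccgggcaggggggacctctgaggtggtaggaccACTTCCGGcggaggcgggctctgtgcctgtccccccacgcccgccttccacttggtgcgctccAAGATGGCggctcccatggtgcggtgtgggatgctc
The Mrpl17 promoter (chr7:105811038-105811337, minus strand) holds the NRF1 motif, which begins 11 bases before the start, on the strand of the gene. The Mrpl33 promoter (chr5:31613701-31614000, plus strand) holds the NRF1 motif and then the GABPA motif, which begin 12 and 3 bases before the start, both on the strand of the gene. In the Mrpl52 promoter (chr14:54426659-54426958, plus strand) the GABPA motif lies on the opposite strand and begins at base 1 after the start. The Mrps27 promoter (chr13:99344536-99344835, plus strand) holds the GABPA motif on the opposite strand 49 bases before the start and the YY1 motif 14 bases after it. The promoters of Mrpl46 and Mrps11, neighbours on chromosome 7 transcribed away from each other, overlap by 141 bases, the only such pair among the members.

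The level per transcript length could be compared between members only in male VTA, where values are in RPKM, reads scaled by transcript length and sequencing depth. The median member had 13.16 RPKM there, and the means spanned 26.2-fold among the 75 members above 0. Mrpl42, a mitochondria-only protein of the large subunit, was highest with a lowest value of 49.75, a median of 59.38 and a highest of 72.16 RPKM over the 20 libraries. It was followed by Mrpl41 with a mean of 51.05 ± 2.50 RPKM and Mrpl52 with 38.96 ± 2.64 RPKM (SD, n = 20), both mitochondria-only proteins of the large subunit. Mrpl11, a protein of the ribosomal stalk base with 30.99 ± 1.74 RPKM, and Mrpl27 with 30.95 ± 1.67 RPKM had near-equal levels within their spread. At the low end stood Mrpl33 with 2.249 ± 0.116 RPKM, Mrps35 with 2.502 ± 0.128 RPKM, Mrps10 with 3.598 ± 0.193 RPKM and Mrps18b with 3.611 ± 0.310 RPKM. Members of 1 particle were thus far from equal in RPKM, and the lowest library of Mrpl42 was above the highest of Mrpl52 (43.64 RPKM). RPKM rests on the transcript length used for each gene, which was not checked. In female VTA, Mrpl33 and Mrpl52 had means of 432.8 and 450.1 normalised reads, which are not scaled by length. How far length makes up their gap in RPKM was not tested.

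**Figure D1:**
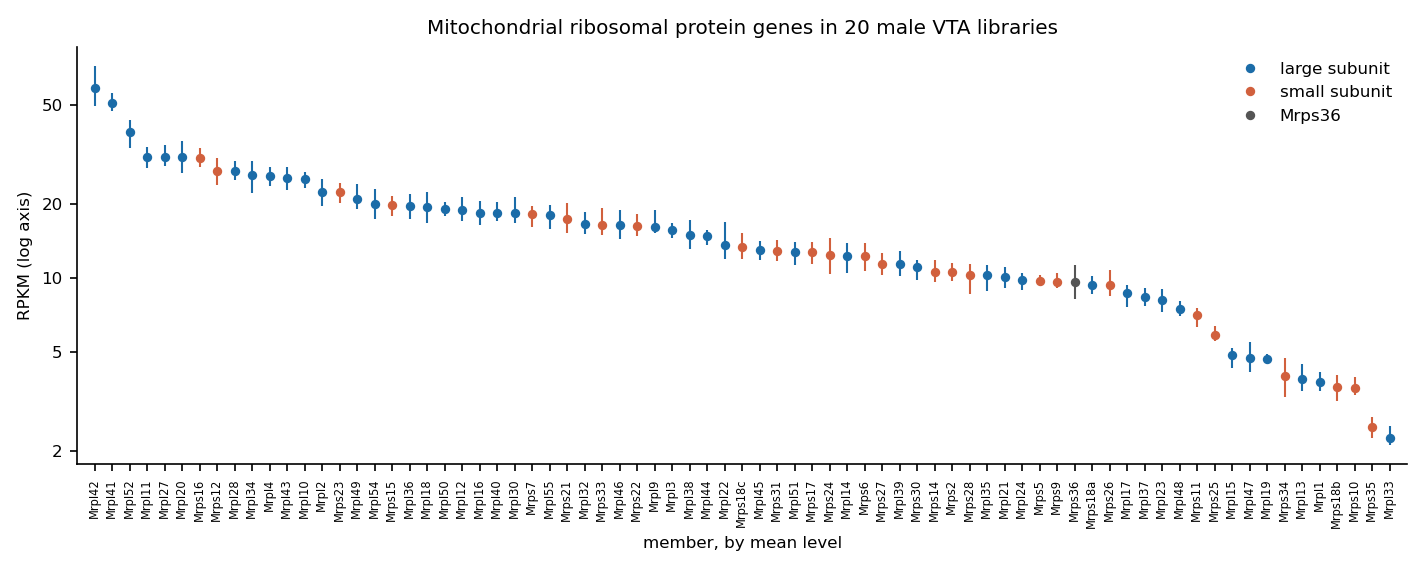
RPKM on a log axis of the 75 members above 0 in 20 male VTA libraries, ordered by mean; points are means and lines run from the lowest to the highest library. Mrpl42 at 59.00 RPKM and Mrpl33 at 2.249 RPKM are the ends of the order. Both subunits are spread over it, and the highest small-subunit member is Mrps16 at 30.57 RPKM.

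Members with a known special task were spread over this order. Among the stalk proteins, which recruit translation factors, Mrpl10 had 25.05 ± 0.968 RPKM and Mrpl12, which also binds the mitochondrial RNA polymerase, had 18.85 ± 1.36 RPKM (SD, n = 20). Mrps12, a protein of the decoding centre, had 27.07 ± 1.85 RPKM. Mrpl32, whose maturation by a mitochondrial protease is needed for ribosome assembly, had 16.49 ± 1.03 RPKM, Mrpl3 had 15.63 ± 0.666 RPKM, Mrps22 had 16.24 ± 0.968 RPKM and Mrpl44, an RNase III-like protein, had 14.83 ± 0.546 RPKM. The 3 copies of the S18 protein differed: Mrps18c had 13.3 ± 0.802 RPKM, the large-subunit Mrps18a 9.409 ± 0.525 RPKM and Mrps18b 3.611 ± 0.310 RPKM. Mrps30 had 11.06 ± 0.499 RPKM and Mrps36 had 9.649 ± 0.857 RPKM. In the GENCODE vM1 annotation 26 of the 76 members share exon sequence with another gene, 22 with a gene on the opposite strand and 6 with one on the same strand (Mrpl33 with Bre, Mrpl48 with D630004N19Rik, Mrpl53 with Ccdc142, Mrps24 with Urgcp, Mrps34 with Nme3, Mrps6 with Slc5a3). The kit did not keep strand, so the levels of these 26, among them the neighbours Mrpl46 and Mrps11, may include or lose reads of the partner.

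The members' mean log2 level in a library moved little, and the gap between the subunits varied less. Over 22 female libraries each, that mean was 9.42 ± 0.06 in VTA, 9.349 ± 0.072 in NAc and 9.294 ± 0.044 in PFC (SD, log2 of normalised reads plus 1). In males it was 9.329 ± 0.048 in HIP and 9.276 ± 0.068 in PFC (n = 24 each), and in tables of their own it was 9.503 ± 0.047 in male NAc (48 members, n = 29) and 3.776 ± 0.042 in male VTA (log2 RPKM plus 1, n = 20). The order VTA, NAc, PFC in females held for the means, and the ranges of neighbours overlapped (9.323 to 9.506 in VTA, 9.23 to 9.551 in NAc, 9.2 to 9.397 in PFC). The large-subunit mean minus the small-subunit mean averaged 0.314 in male VTA (log2 RPKM plus 1) and 0.193 to 0.234 in the other sets. Its SD was 0.019 to 0.023 between the libraries of a region, less than the SD of the mean level itself. Both subunit means share the scaling of their library, and whether the subunits are coupled was not tested. Within groups, the members also varied less than the typical gene: in male HIP the median member had a residual SD of 0.096, against 0.156 over all genes tested, and 73 of 75 members were under that all-gene median. The smallest count was 52 of 75 members under the all-gene median in male PFC (0.104 against 0.12). The largest residual SD within a region was that of Mrps6 in HIP (0.286), of Mrpl14 in female NAc (0.206) and of Mrpl52 in male PFC (0.191). Mrps6 was at 0.193 in female NAc, and Mrps28 at 0.191 in male PFC.

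**Figure D2:**
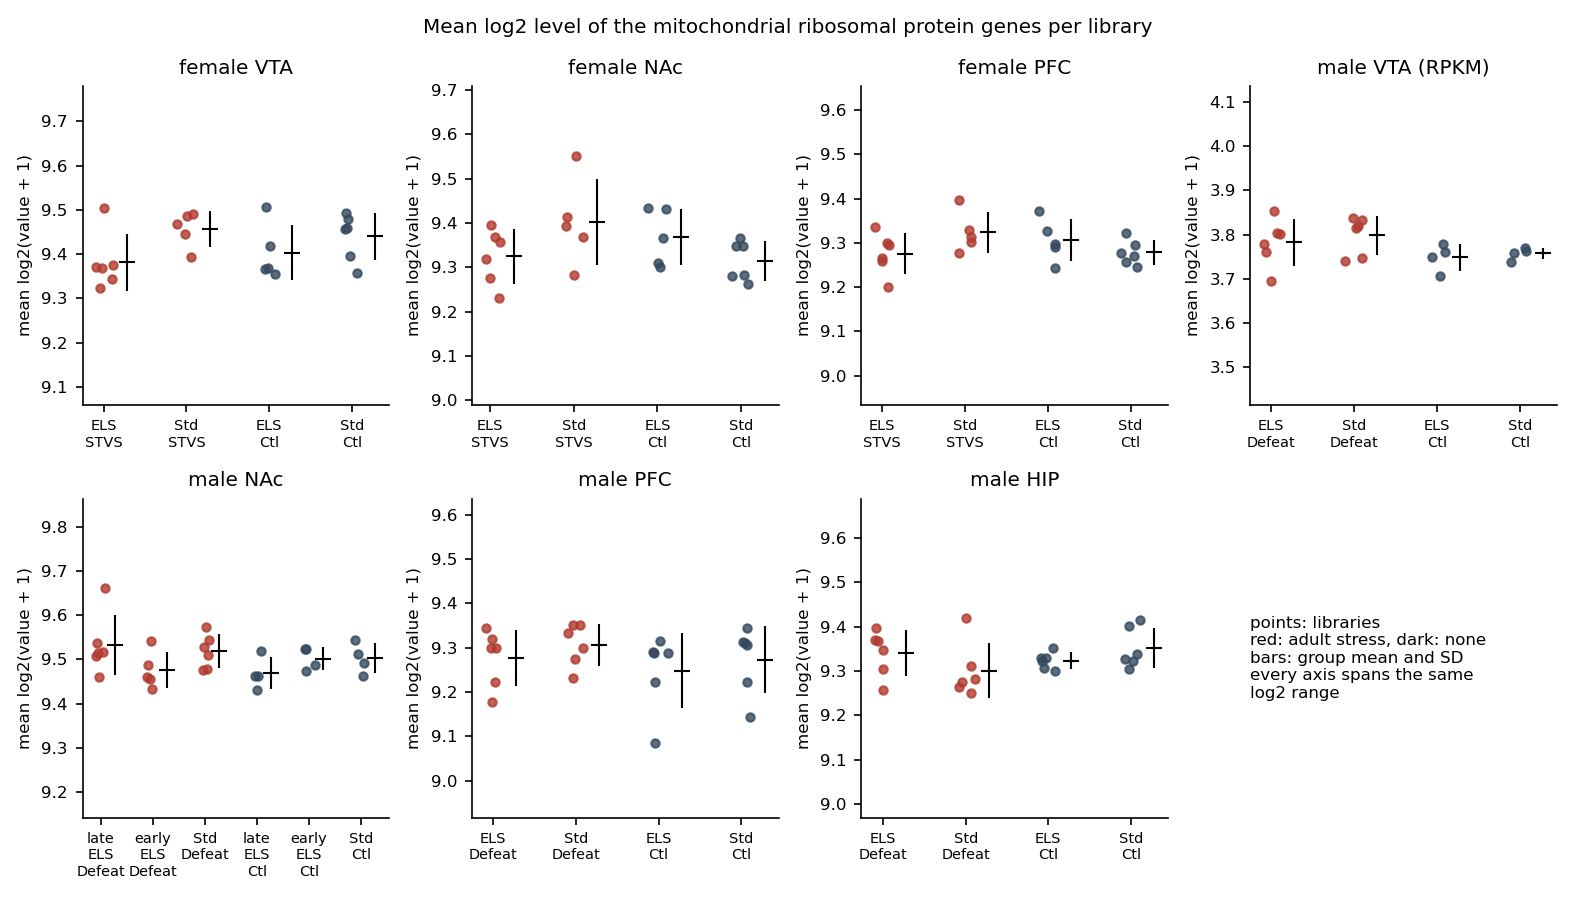
Mean of log2(value + 1) over the members in each library, by region, sex and stress group, with the group mean and SD beside the points; male VTA is in RPKM, the others in normalised reads, and every axis spans the same range. Groups overlap in every panel, and the lowest library in normalised reads, at 9.086, is a male PFC library of ELS without adult stress.

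Between brain regions most members differed in each of the 3 female comparisons and 48.0% in the male one, and the typical member differed by less than the typical gene. Of 75 members, 64 differed between female VTA and NAc at an adjusted p under 0.05 in limma (85.3%, against 89.5% of all 14000 genes tested), 44 higher and 20 lower in VTA (46.6% and 42.9% of all genes). Between VTA and PFC 64 differed (85.3%, against 88.7% of all genes), 50 higher and 14 lower in VTA (44.9% and 43.8% of all genes). Between NAc and PFC 55 differed (73.3%, against 83.9%), 34 higher and 21 lower in NAc (43.1% and 40.8% of all genes). Between male HIP and PFC 36 differed (against 71.2% of all genes), 29 higher and 7 lower in HIP (36.9% and 34.4% of all genes), and with quantile normalisation 18 were higher and 14 lower. The share of members called was thus near that of all genes in both VTA comparisons and below it in the other 2. The median log2 difference of the members was 0.107 for VTA minus NAc (all genes 0.024), 0.130 for VTA minus PFC (all genes 0.008), 0.034 for NAc minus PFC (all genes 0.014) and 0.038 for HIP minus PFC (all genes 0.010). With quantile normalisation these 4 medians were 0.077, 0.086, 0.022 and 0.0045. The median size of the difference, regardless of sign, was 0.163 in the members against 0.405 in all genes for VTA minus NAc, 0.153 against 0.382 for VTA minus PFC, 0.111 against 0.286 for NAc minus PFC and 0.063 against 0.175 for HIP minus PFC. Without the doubted libraries, 43 members were higher and 20 lower in VTA than in NAc, 47 and 15 in VTA than in PFC, 34 and 19 in NAc than in PFC, and 29 and 7 in HIP than in PFC. Region values pool all 4 stress groups, and with unstressed standard-reared mice alone fewer members passed.

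**Figure D3:**
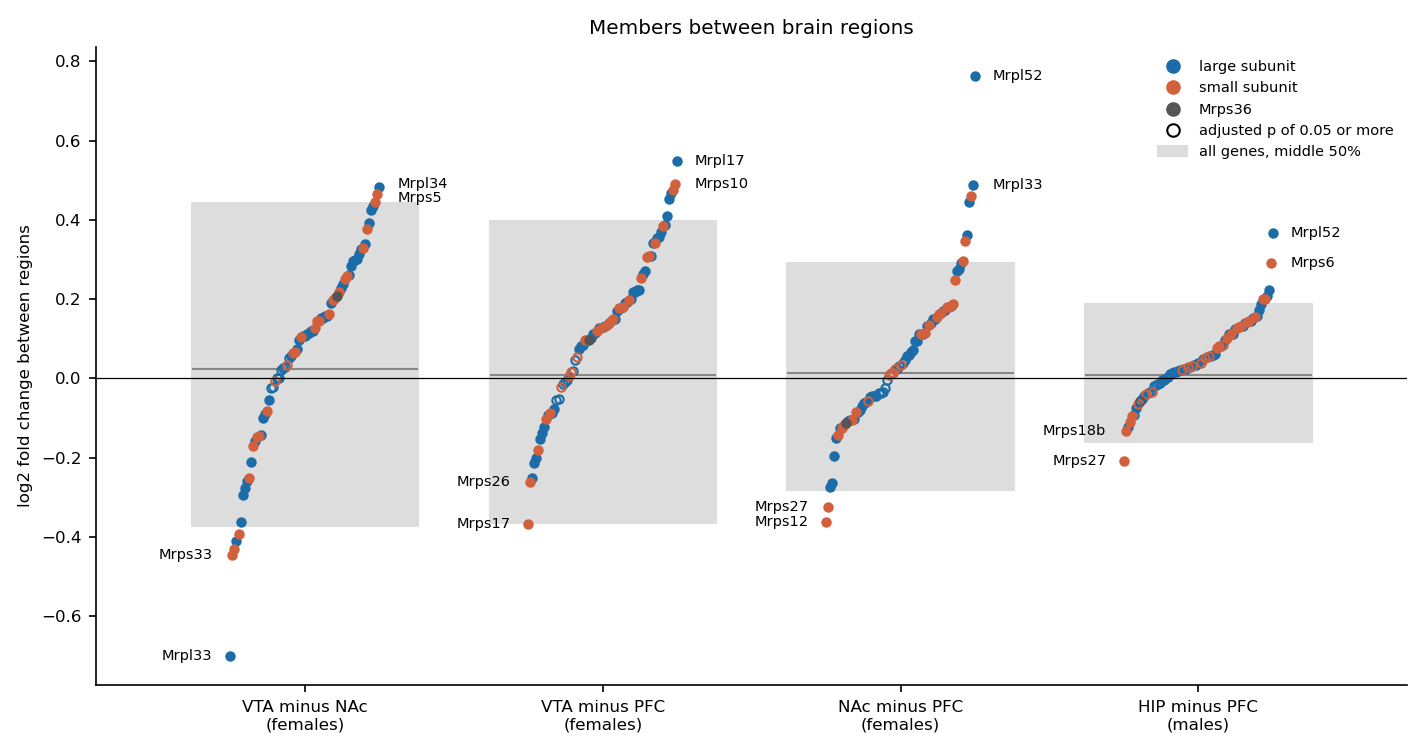
Log2 differences of the 75 members between regions, each point a member ordered by size; filled points pass an adjusted p of 0.05, grey boxes hold the middle 50% of all 14000 genes and grey lines their median. Most members lie inside the grey box, and Mrpl33 at -0.70 (VTA minus NAc) and Mrpl52 at 0.76 (NAc minus PFC) lie far outside it.

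The median of the 48 large-subunit members tested was 0.107 and that of the 26 small-subunit members 0.116 for VTA minus NAc. For VTA minus PFC the medians were 0.131 in each subunit, for HIP minus PFC 0.032 in the large and 0.067 in the small one, and for NAc minus PFC 0.036 in the large and 0.072 in the small one. Proteins with a bacterial homologue and proteins found in mitochondria only had medians of 0.096 and 0.115 for VTA minus NAc and of 0.095 and 0.024 for NAc minus PFC. These differences between classes of member were not tested. Over the 3 female regions, the means ran VTA over NAc over PFC in 25 members, VTA over PFC over NAc in 19, and NAc was highest in 19 and PFC highest in 12.

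Mrpl52, a mitochondria-only large-subunit protein, differed most between NAc and PFC. It had 496.8, 590.9 and 831.6 normalised reads (lowest, median, highest of 22) in female NAc, against 307.0, 347.7 and 420.2 in female PFC. Every NAc library was above every PFC library, and the log2 difference was 0.763 ± 0.041 (SE, limma adjusted p = 1.48e-25). In VTA it lay between, at 394.8, 450.4 and 519.2 normalised reads, lower than in NAc by a log2 difference of -0.409 ± 0.041 (adjusted p = 5.61e-14). Male HIP had 336.3, 416.7 and 489.0 normalised reads against 195.1, 330.8 and 398.2 in male PFC, a log2 difference of 0.366 ± 0.044 (adjusted p = 7.66e-10) with overlapping ranges.

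Mrpl33, the lowest member above 0 per length in male VTA, was the member that differed most between VTA and NAc. It had 369.5, 429.5 and 498.8 normalised reads in female VTA, against 626.0, 705.3 and 833.5 in female NAc, and the ranges did not meet. The log2 difference was -0.700 ± 0.033 (adjusted p = 1.09e-28), and NAc also exceeded PFC (427.5, 507.7 and 569.9) by 0.487 ± 0.033 (adjusted p = 6.78e-21). VTA was lower than PFC by -0.213 ± 0.033 (adjusted p = 3.08e-08), so VTA and NAc stood on either side of PFC. Mrpl33 shares exon sequence with Bre on its own strand, and reads of the pair could be split between them by the counting.

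Mrpl17, a large-subunit protein with a bacterial homologue, was highest in VTA. It had 926.1, 1046 and 1130 normalised reads in female VTA, against 681.4, 763.8 and 882.9 in NAc and 634.3, 703.4 and 779.1 in PFC. No NAc or PFC library reached the VTA range, and the log2 differences were 0.435 ± 0.024 for VTA minus NAc (adjusted p = 1.39e-25) and 0.548 ± 0.024 for VTA minus PFC (adjusted p = 1.28e-30). In male HIP it had 722.2, 817.6 and 903.3 normalised reads, against 541.9, 716.1 and 830.0 in male PFC, with ranges that overlapped.

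Among small-subunit members, Mrps5 and Mrps27 were high in VTA. Mrps5, close to the mRNA entrance, had 1650, 1768 and 1914 normalised reads in female VTA, against 1181, 1281 and 1447 in NAc and 1203, 1279 and 1398 in PFC, and the VTA range met neither. Its log2 differences were 0.466 ± 0.020 (VTA minus NAc, adjusted p = 9.45e-31) and 0.475 ± 0.020 (VTA minus PFC, adjusted p = 3.37e-31). Mrps27, a mitochondria-only small-subunit protein, had 479.6, 568.9 and 607.2 normalised reads in VTA and 346.3, 405.4 and 501.7 in NAc, with PFC at 458.0, 520.8 and 574.4. It was higher in VTA than in NAc (0.445 ± 0.031, adjusted p = 2.65e-20) and lower in NAc than in PFC (-0.324 ± 0.031, adjusted p = 1.83e-14). In male HIP it had the most negative difference of any member, with 389.0, 467.3 and 527.3 normalised reads against 481.2, 533.5 and 582.7 in male PFC (-0.207 ± 0.030, adjusted p = 4.68e-08).

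**Figure D4:**
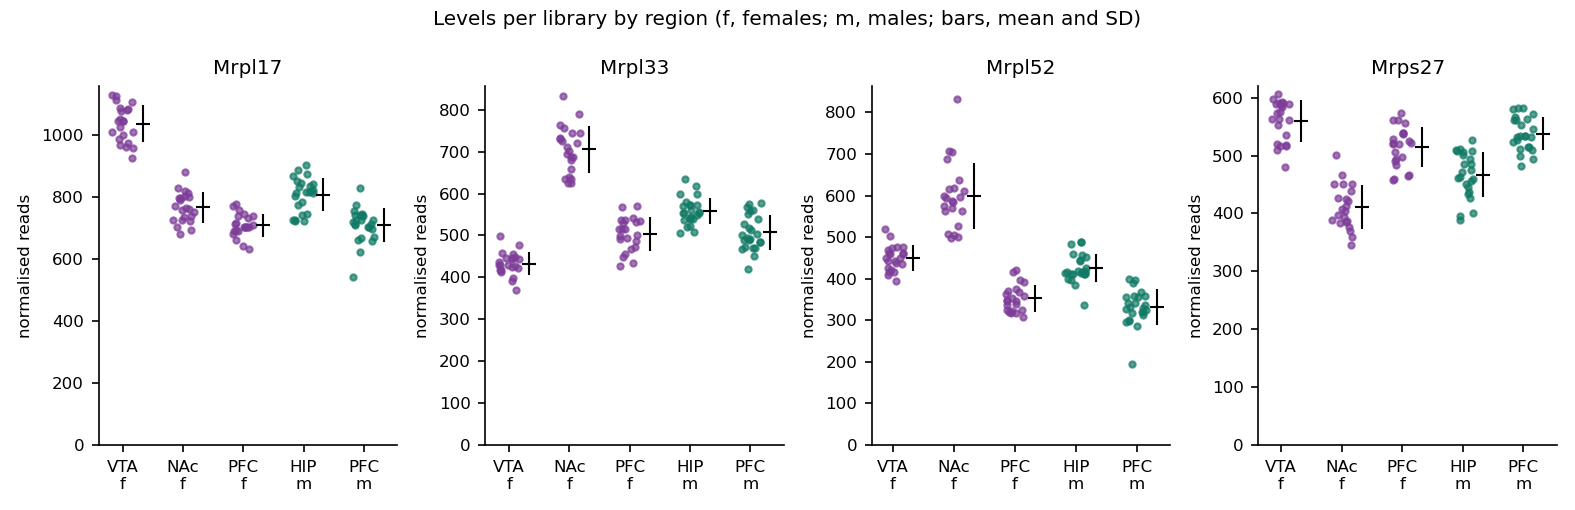
Normalised reads of Mrpl17, Mrpl33, Mrpl52 and Mrps27 in each library of female VTA, NAc and PFC (22 each) and male HIP and PFC (24 each), with mean and SD. Mrpl17 has its highest values in VTA, Mrpl33 and Mrpl52 have theirs in NAc, and Mrps27 is lowest in NAc among the female regions.

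Further members were among the 5 largest differences of a comparison. Higher in VTA than in NAc were also Mrpl34 (0.482 ± 0.046) and Mrpl35 (0.424 ± 0.028), and lower in VTA were Mrps33 (-0.444 ± 0.031), Mrps9 (-0.429 ± 0.022) and Mrps17 (-0.391 ± 0.021). Against PFC, VTA was higher for Mrps10 (0.491 ± 0.031), Mrpl54 (0.467 ± 0.042) and Mrpl42 (0.452 ± 0.036), and lower for Mrps17 (-0.368 ± 0.021), Mrps26 (-0.262 ± 0.032), Mrpl11 (-0.251 ± 0.029) and Mrpl37 (-0.200 ± 0.024). NAc exceeded PFC for Mrps33 (0.461 ± 0.031), Mrpl23 (0.445 ± 0.033) and Mrpl24 (0.362 ± 0.027) and was below it for Mrps12 (-0.362 ± 0.040), Mrpl48 (-0.273 ± 0.021), Mrpl28 (-0.263 ± 0.033) and Mrpl43 (-0.195 ± 0.031). HIP exceeded PFC for Mrps6 (0.292 ± 0.063), Mrpl1 (0.223 ± 0.028), Mrpl50 (0.208 ± 0.029) and Mrps22 (0.201 ± 0.035) and was below it for Mrps18b (-0.133), Mrpl48 (-0.122), Mrps25 (-0.110) and Mrps17 (-0.095). All of these passed an adjusted p of 0.05 in limma over all genes. Mrps18b, Mrpl48, Mrps25 and Mrps17 did not pass for HIP minus PFC with unstressed standard-reared mice alone, at -0.094, -0.146, -0.021 and -0.102. Mrps6 had a log2 difference of 0.176 without the doubted libraries (adjusted p = 0.0112).

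The stalk proteins of the large subunit did not share 1 pattern. Mrpl12 had 467.2, 532.9 and 663.6 normalised reads in female VTA, against 351.0, 422.9 and 510.6 in NAc and 412.4, 456.5 and 527.7 in PFC, and was higher in VTA than in NAc by 0.327 ± 0.038 (adjusted p = 8.56e-12). Mrpl11 ran the other way, with 624.6, 688.7 and 805.5 normalised reads in VTA against 769.9, 860.2 and 1112 in NAc, a log2 difference of -0.362 ± 0.029 (adjusted p = 8.12e-18). Mrpl10 did not pass between VTA and NAc (0.021 ± 0.021, adjusted p = 0.341) and was higher than in PFC in VTA (0.194), NAc (0.173) and HIP (0.152).

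Other members of known task also parted by region. Mrps12 of the decoding centre was lowest in NAc, with 496.8, 650.5 and 765.3 normalised reads against 700.9, 844.6 and 1010 in PFC. Mrps22 was highest in VTA (503.5, 570.7 and 639.0 normalised reads), with no PFC library (375.6, 450.2 and 496.1) in that range, and its VTA minus PFC difference was 0.343 ± 0.032 (adjusted p = 2.87e-15). Mrpl3 was lower in VTA than in NAc by -0.275 ± 0.019 (adjusted p = 1.73e-20) with ranges that did not meet, 1669, 1809 and 1973 against 2049, 2203 and 2381 normalised reads. Mrps30 was highest in NAc, with a difference of -0.210 for VTA minus NAc and 0.291 for NAc minus PFC. Mrpl44 did not pass between VTA and NAc and was higher than PFC by 0.132 in both. Mrpl32 was lower in VTA than in NAc (-0.089) and PFC (-0.122) and higher in HIP than in PFC (0.112). The S18 copies differed in sign for VTA minus NAc, at 0.107 for Mrps18a, 0.064 for Mrps18b (adjusted p = 0.135) and -0.252 for Mrps18c. Mrps36 was higher in VTA than in NAc (0.208) and PFC (0.098).

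The remaining machinery of mitochondrial translation was called in both directions between VTA and NAc, beside a respiratory chain mostly higher in VTA. The counts are of genes at an adjusted p under 0.05 in limma. Of all genes, 46.6% were higher and 42.9% lower in VTA than in NAc. The shares higher and lower were 44.9% and 43.8% for VTA minus PFC, and 43.1% and 40.8% for NAc minus PFC. Of 7 further mitoribosomal proteins without an Mrp symbol, 6 were higher and 1 lower in VTA than in NAc (median 0.152), among them Ict1, the older symbol of Mrpl58, a peptidyl-tRNA hydrolase built into the large subunit, at 0.396 ± 0.029. Of 12 translation factors, 5 were higher and 5 lower in VTA than in NAc (median 0.005): the ribosome recycling factor Mrrf differed by 0.587 ± 0.031 and the elongation factor Gfm1 by 0.534 ± 0.032, whereas Guf1 differed by -0.434 ± 0.038. Of 17 mitochondrial tRNA synthetases, 6 were higher and 10 lower in VTA than in NAc (median -0.157). Of 14 assembly and rRNA modification factors tested out of 21, 6 were higher and 4 lower (median 0.056), with the methyltransferase Mrm1 at 0.945 ± 0.037. Of 7 genes of mitochondrial transcription and mRNA stability tested out of 9, 5 were higher and 1 lower in VTA than in NAc (median 0.205), with the RNA-binding proteins Grsf1 at 0.540 ± 0.024 and Lrpprc at 0.415 ± 0.027. Of 42 nuclear respiratory chain subunits, 34 were higher and 3 lower in VTA than in NAc (median 0.265) and 38 higher and 2 lower in VTA than in PFC (median 0.309), with Ndufb8 of complex I at 0.782 ± 0.043 and 0.714 ± 0.043. In NAc against PFC, 15 of these 42 were higher and 13 lower (median 0.003).

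Regulators of mitochondrial biogenesis and cytosolic ribosomal proteins had patterns of their own between regions. Of all genes, 46.6% were higher and 42.9% lower in VTA than in NAc, and 44.9% and 43.8% in VTA than in PFC. The shares were 43.1% and 40.8% for NAc minus PFC, and 36.9% and 34.4% for HIP minus PFC. Of 9 biogenesis regulators, 2 were higher and 7 lower in VTA than in NAc (median -0.345): the coactivator Ppargc1a differed by 0.897 ± 0.052, Gabpa by -0.642 ± 0.032 and Yy1 by -0.461 ± 0.025. Of 77 cytosolic ribosomal proteins, 6 were higher and 51 lower in VTA than in NAc (median -0.154), 59 higher and 5 lower in VTA than in PFC (median 0.220), and 73 higher and 2 lower in NAc than in PFC (median 0.391). Cell makeup differed with region too: all 10 oligodendrocyte markers were higher in VTA than in NAc (median 1.60) and in NAc than in PFC (median 1.65), with summed levels of 439300 to 729400 normalised reads in VTA, 128800 to 233900 in NAc and 42590 to 140700 in PFC. Of 9 neuron markers, 6 were higher and 2 lower in VTA than in NAc, and 1 was higher and 8 lower in NAc than in PFC. In male HIP all 10 choroid plexus markers were higher than in PFC (median 2.80), with summed levels of 363.2 to 290700 normalised reads in HIP and 130.5 to 623.2 in PFC. The part of cell makeup in the region differences of the members was not tested.

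Between sexes, male and female PFC of unstressed standard-reared mice gave 11 genes of 14000 at an adjusted p under 0.05 (0.0786%), and no member was among them. The members' median log2 difference, male minus female, was -0.019 (all genes 0.003). The lowest adjusted p of a member was that of Mrps34 (-0.235 ± 0.077, adjusted p = 0.449). Of the 6 male libraries 2 were doubted, and without the doubted libraries 10 genes passed, no member among them, with a members' median of -0.028. Without replicate 5 of the male libraries that median was 0.0152.

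For stress, 40 comparisons were made over the 7 sets of libraries, and no gene, member or other, passed an adjusted p of 0.05 in any of them with limma (0% of all genes in each), nor in the 35 that edgeR's quasi-likelihood test could take. At an unadjusted p under 0.05 the counts over all genes ran from 187 to 2337 per comparison and those of the members from 0 to 17. Over all comparisons 178 of 2730 member values were under 0.05 (6.52%), against 6.24% of all values. Leaving out 1 library raised the count of genes to 35 in male PFC for defeat after ELS (without the library of ELS alone, replicate 1) and to 71 in male NAc for late minus early ELS without defeat (without late ELS alone, replicate 3), with no member among them. The members' medians ran from -0.143 to 0.080 and those of all genes from -0.023 to 0.027, and the largest single log2 difference of a member was 0.651. Comparisons within a set share groups, so their values are not independent of each other. Samples of a group are separate mice or pools, so a p-value measures the spread between those.

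**Figure D5:**
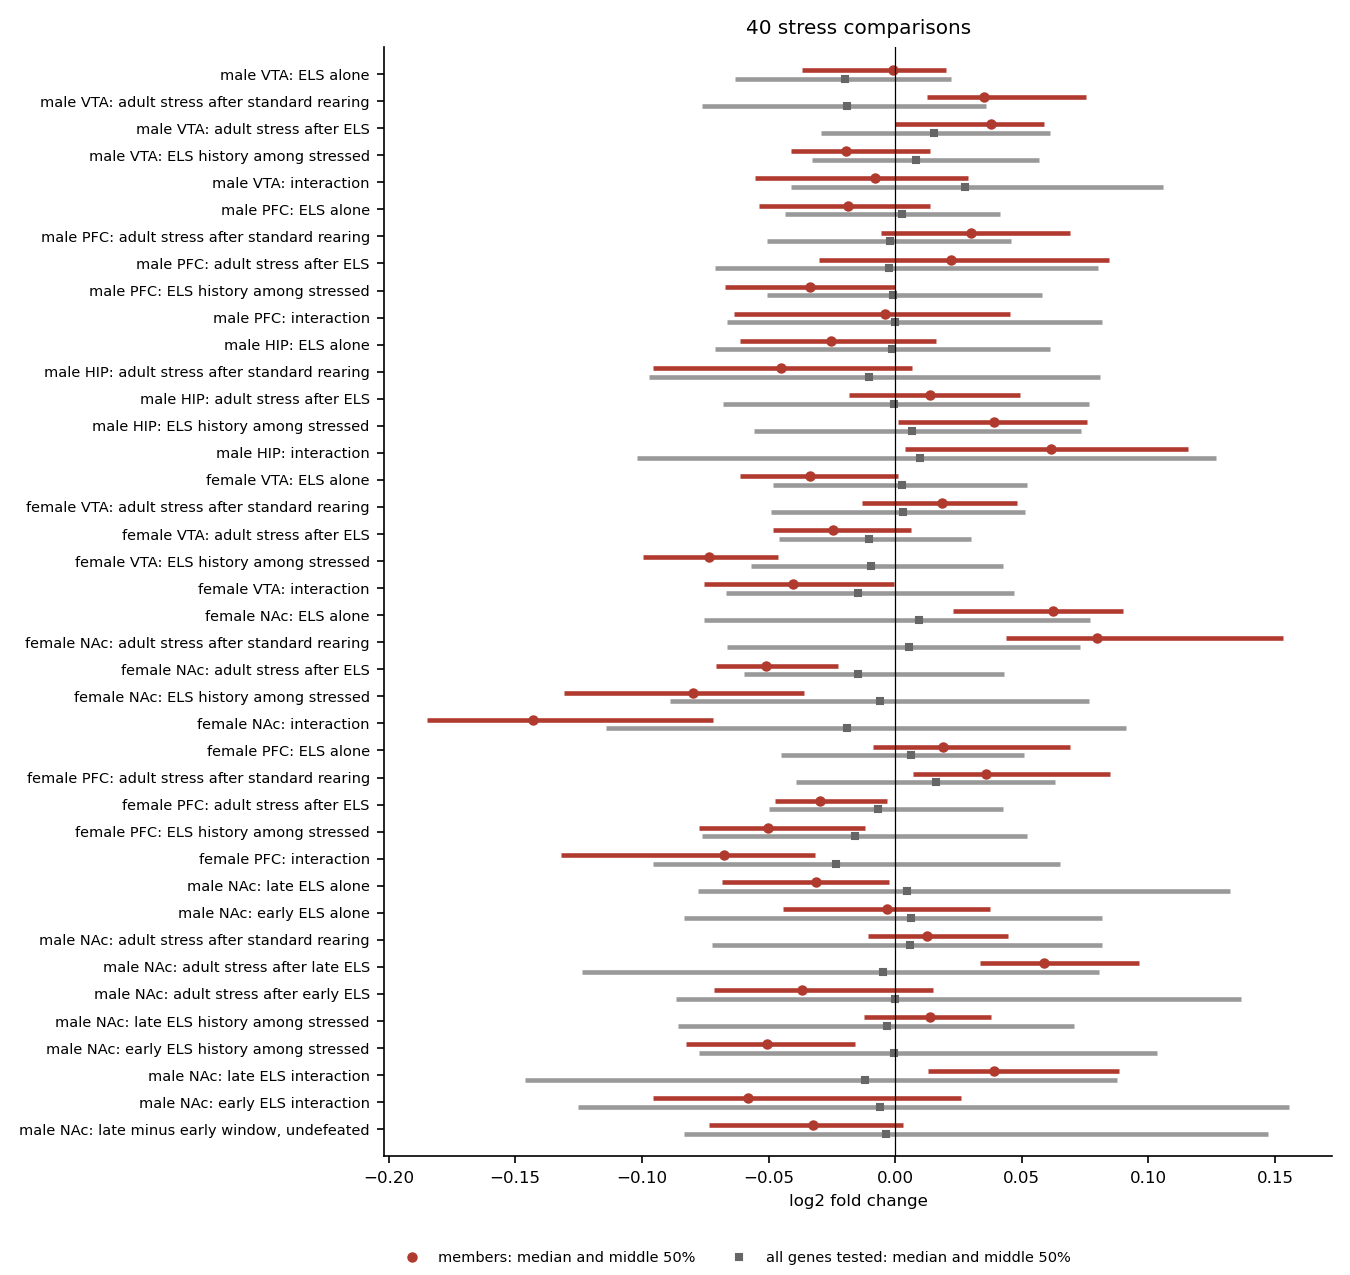
Median log2 difference and middle 50% of the members (red) and of all genes tested (grey) in each of the 40 stress comparisons. The members' median is lowest at -0.143 in the female NAc interaction and highest at 0.080 in female NAc for adult stress after standard rearing, and no member passed an adjusted p of 0.05.

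The comparisons described next were chosen after their values were seen, as the 5 with at least 10 members at an unadjusted p under 0.05 in 1 direction. In female NAc, STVS after standard rearing had 65 of 75 members above 0 (52.2% of all genes). At an unadjusted p under 0.05, 17 were higher (3.39% of all genes) and none lower. The members' mean log2 level was 9.402 ± 0.097 in standard-reared STVS mice (n = 5), against 9.314 ± 0.044 in standard-reared unstressed mice (n = 6), and the ranges overlapped (9.284 to 9.551 and 9.262 to 9.366). The members' median was 0.080 (all genes 0.005), 0.107 without the doubted libraries and 0.077 without 10 female NAc libraries whose adult label repeats the sex, and leaving out 1 library at a time gave 0.0505 (without replicate 5 of standard rearing with STVS) to 0.107. After ELS, the same adult stress had 11 of 75 members above 0 (42.2% of all genes). The members' median there was -0.051 (all genes -0.015), -0.041 without the doubted libraries and -0.072 to -0.031 with 1 library left out (without replicates 2 and 4 of ELS alone). The interaction had 4 of 75 above 0 (45.1% of all genes), and 12 at an unadjusted p under 0.05 and lower (3.99% of all genes). Its members' median was -0.143 (all genes -0.019), -0.165 without the doubted libraries.

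Mrps27 had the smallest p for STVS after standard rearing. It had 412.4, 421.5, 451.3, 467.3 and 501.7 normalised reads in the 5 standard-reared STVS mice, against 346.3, 382.2 and 425.8 (lowest, median, highest) in the 6 standard-reared unstressed mice. The groups overlapped slightly, and the log2 difference was 0.227 ± 0.070 (limma adjusted p = 0.73), 0.250 without the doubted libraries. Mrpl36, a short large-subunit protein, had 401.1, 420.2 and 482.8 normalised reads in the 6 ELS mice with STVS, against 437.5, 495.2, 506.7, 541.5 and 569.8 in the 5 standard-reared mice with STVS. That difference was -0.230 ± 0.070 (adjusted p = 0.29) and its interaction -0.288 ± 0.098 (adjusted p = 0.612), against -0.277 and -0.335 without the doubted libraries. Mrpl43 (-0.281 ± 0.10) and Mrps23 (-0.239 ± 0.088) followed in the interaction, both at an adjusted p of 0.612, and were at -0.315 and -0.288 without the doubted libraries.

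Other gene lists moved beside the members in female NAc. For STVS after standard rearing, 76 of 77 cytosolic ribosomal proteins were above 0 (median 0.170), as were 40 of 42 respiratory chain subunits (median 0.130), while 3 of 12 mitochondrial translation factors were (median -0.035). All 5 blood markers in the table were above 0 (median 0.992), with summed levels of 946.3, 1158 and 10460 normalised reads (lowest, median, highest) in standard-reared STVS mice, against 751.4, 883.1 and 1241 in standard-reared unstressed mice. In the interaction 1 of 77 cytosolic ribosomal proteins, 1 of 42 respiratory chain subunits and 0 of 5 blood markers were above 0 (medians -0.236, -0.187 and -1.228). The part of blood in the members' values was not tested.

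Female PFC and VTA gave smaller shifts. In PFC the interaction had 16 of 75 members above 0 (42% of all genes), and 12 at an unadjusted p under 0.05 and lower (4.67% of all genes). Its members' median was -0.068 (all genes -0.023), -0.083 without the doubted library. Mrpl20, a large-subunit protein with a bacterial homologue, had 827.1, 878.2 and 1019 normalised reads after ELS and STVS (n = 6) and 931.2, 968.6, 971.0, 1021 and 1038 after standard rearing and STVS. Without adult stress it had 898.4, 909.2, 952.1, 965.5 and 1076 normalised reads after ELS, against 820.9, 889.3 and 927.5 after standard rearing (n = 6). STVS thus went with lower means after ELS and higher means after standard rearing, with an interaction of -0.258 ± 0.076 (adjusted p = 0.584), -0.279 without the doubted library. Mrpl12 had 494.0 ± 28.2 normalised reads in standard-reared STVS mice (SD, n = 5), against 432.9 ± 18.7 in standard-reared unstressed mice (n = 6), a log2 difference of 0.189 ± 0.064 (adjusted p = 0.861), 0.203 without that library. Beside the members in that interaction, 61 of 77 cytosolic ribosomal proteins, 2 of 42 respiratory chain subunits, 10 of 10 oligodendrocyte markers and 0 of 9 neuron markers were above 0 (medians 0.055, -0.079, 0.318 and -0.164). Whether cell makeup had a part in it was not tested.

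In female VTA, ELS history among STVS mice had 2 of 75 members above 0 (44.7% of all genes). At an unadjusted p under 0.05, 10 were lower (2.67% of all genes). The members' median was -0.074 (all genes -0.010), -0.069 without the doubted libraries. The members' mean log2 level was 9.381 ± 0.064 in ELS mice with STVS (n = 6), against 9.457 ± 0.040 in standard-reared mice with STVS (n = 5). Mrps36 had 392.0, 465.8 and 537.4 normalised reads in those ELS mice, against 519.0, 527.2, 529.5, 543.4 and 558.1 in the standard-reared ones, a difference of -0.231 ± 0.079 (adjusted p = 0.927). Mrps33, a small-subunit protein, had 1081, 1126 and 1195 normalised reads, against 1164, 1184, 1210, 1229 and 1389, a difference of -0.128 ± 0.043 (adjusted p = 0.927). Both groups of libraries overlapped for each gene. Mrpl10 of the stalk had -0.10 ± 0.035 (adjusted p = 0.927). Without the doubted libraries the differences of Mrps36, Mrps33 and Mrpl10 were -0.225, -0.143 and -0.087. Beside them, 0 of 42 respiratory chain subunits, 2 of 77 cytosolic ribosomal proteins, 0 of 10 oligodendrocyte markers and 0 of 5 blood markers were above 0 (medians -0.099, -0.071, -0.159 and -0.695). The summed blood markers were at 865.2, 1610 and 3022 normalised reads in those ELS mice, against 1158, 1993 and 11940 in the standard-reared ones, and their part in the members' values was not tested.

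In male HIP, defeat after standard rearing had 20 of 75 members above 0 (46.8% of all genes). At an unadjusted p under 0.05, 10 were lower (8.85% of all genes). The members' median was -0.045 (all genes -0.010) and -0.058 without the doubted libraries. With 1 library left out at a time it was -0.079 (without replicate 4 of standard rearing with defeat) to -0.032. Mrpl42 had 785.9, 857.1 and 942.0 normalised reads in 6 defeated standard-reared mice, against 916.7, 968.8 and 1007 in 6 undefeated ones, a difference of -0.171 ± 0.048 (adjusted p = 0.287), -0.146 without the doubted libraries. Mrps6, a small-subunit protein with a bacterial homologue, had 320.6, 387.8 and 495.3 normalised reads in defeated mice, against 412.6, 545.8 and 683.7 in undefeated ones. The groups overlapped, with a difference of -0.505 ± 0.158 (adjusted p = 0.287), and its interaction was 0.651 ± 0.224 (adjusted p = 0.368). Without the doubted libraries the Mrps6 difference was -0.255 and its interaction 0.316.

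Mrps6 was highest in the HIP libraries with the most choroid plexus transcript. The 6 libraries with over 10000 normalised reads of Ttr, in 3 of the 4 groups, had 540.9 to 683.7 normalised reads of Mrps6, and the other 18 had 290.5 to 535.0. The highest of these 18, of ELS without defeat, had 94.88 normalised reads of Ttr. The 3 undefeated standard-reared libraries with the most Mrps6 (605.5, 664.5 and 683.7 normalised reads) were those with 171500 to 250300 normalised reads of Ttr, and the other 3 had 412.6, 484.2 and 486.0 normalised reads of Mrps6. Slc5a3, the inositol transporter that shares exon sequence with Mrps6 on the same strand, had 1167, 1610 and 1990 normalised reads in defeated standard-reared mice, against 1650, 2287 and 3067 in undefeated ones. All 10 choroid plexus markers were detected in every group of HIP, none of the 10 was above 0 for defeat after standard rearing (median -3.794), and their summed level was 363.2 to 965.7 normalised reads in defeated and 498.6 to 290700 in undefeated mice. All 10 oligodendrocyte markers were below 0 too (median -0.608), as were 39 of 42 respiratory chain subunits (median -0.109) and 63 of 77 cytosolic ribosomal proteins (median -0.053), while the 5 blood markers were above 0 (median 1.17). Their part in the members' values was not tested.

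The other male sets held few members at a low p. In male NAc, Mrps16, a small-subunit protein with a bacterial homologue, had 504.3, 534.5 and 583.4 normalised reads in 6 defeated late-ELS pools, against 458.8, 473.9, 475.6 and 483.9 in the 4 undefeated late-ELS pools. The pools did not overlap, and the difference was 0.183 ± 0.055 (adjusted p = 0.496). After early ELS and defeat Mrps16 had 457.8, 461.0, 485.3, 507.3 and 532.5 normalised reads, against 514.7, 554.5 and 595.3 after standard rearing and defeat (n = 6), a difference of -0.182 ± 0.051 (adjusted p = 0.682). Mrpl17 had 978.8, 1000 and 1013 normalised reads in defeated late-ELS pools, against 840.1, 881.9, 941.2 and 956.4 in undefeated late-ELS pools, again without overlap (0.142 ± 0.048, adjusted p = 0.5). Of the 48 members in that table, 42 were above 0 for defeat after late ELS (median 0.059, all genes 48.2% above 0 and median -0.0046). That median was 0.0379 without replicate 1 of late ELS with defeat. For defeat after early ELS 14 were above 0 (median -0.037, 49.7% of all genes above 0), and the median was -0.0241 without replicate 3 of early ELS with defeat. The 2 comparisons share no library.

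In male PFC, Mrpl47, a large-subunit protein with a bacterial homologue, had the lowest adjusted p of any member in a stress comparison. It had 317.1, 347.7 and 382.5 normalised reads in 6 defeated ELS mice, against 354.5, 383.9 and 408.8 in 6 undefeated ELS mice, a difference of -0.127 ± 0.051 (adjusted p = 0.242) with overlapping groups, and -0.127 without the doubted libraries. Mrps26 (0.168, adjusted p = 0.243) and Mrpl52 (0.255, adjusted p = 0.245) went the other way there, with the same differences without the doubted libraries. By unadjusted p in limma, Mrpl47 (0.0192) was behind Mrps16 for early ELS history in defeated male NAc pools (0.00127). It was also behind Mrpl42 for defeat after standard rearing in male HIP (0.00161). In male VTA, Mrps18a had 9.063, 9.809 and 10.21 RPKM in 6 defeated standard-reared pools, against 8.588, 8.77, 8.926 and 9.291 RPKM in 4 undefeated ones. That difference was 0.118 ± 0.042 on the log2 scale of RPKM plus 1 (adjusted p = 0.691). In that comparison 64 of 75 members were above 0 (median 0.035, all genes 41.1% above 0 and median -0.019). For defeat after ELS 56 of 75 were above 0 there (median 0.038, all genes 59.2% above 0 and median 0.015). The members' median was 0.0210 without replicate 2 of ELS with defeat and 0.0244 with quantile normalisation.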

How the data were processed

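Strand was not kept in library preparation, per the labels' protocols. The authors deposited signal values (normalised reads per gene, by their values whole reads over 1 factor per library) for all regions but male VTA, made with HISAT and HTSeq on mm10 per the submitters' processing notes. They deposited RPKM values for male VTA. For that set the notes name TopHat2, HTSeq, Bowtie2 2.2.0, SAMtools 0.1.19, MACS2 2.1.1, mm9 and mm10 without their roles, so its build is not given here, and 181 genes without values were left out. Of the positive signal values, 100% were whole multiples of 1 read within 0.001 reads, which gave back the reads behind the depths.

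limma 3.58.1 under R 4.3.3, with a variance trend and robust fit, was run on log2(value + 1). The genes tested were the 14000 of highest mean per table, or in male VTA the 14586 whose mean reached 0.5 RPKM, and p-values were adjusted by Benjamini-Hochberg over all genes tested. A fold change on this scale understates the change of low genes. Region comparisons averaged the 4 stress groups of each region, and stress comparisons were fitted within a region and sex. The alternative on recovered reads was edgeR 4.0.16 (quasi-likelihood, TMM), which called 0 genes for stress. Others were no filter, quantile normalisation, a pseudocount of 0.1, a replicate block, standard-reared unstressed mice only, leaving out 1 library, the doubted libraries or, in female NAc, the 10 libraries whose adult label repeats the sex and whose title gave the group, and a shorter promoter window. The doubted libraries were picked after seeing the data. The scripts were tested on simulated data.

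Members and gene lists were chosen with earlier results of these data known. Members named are the 5 highest and 5 lowest in RPKM, the 5 largest changes called in each direction per region comparison, the members of lowest p per stress comparison and a set of known roles. Any other member, and Ttr and Slc5a3, were chosen after their values were seen. Symbols come from the male VTA table, which names 27351 identifiers of the largest one. Every replicate is 1 mouse or 1 pool.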

Additional observations from a re-analysis of the deposited data

Results flagged for a closer look

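Of 78 groups of 4 to 10 libraries checked for 1 library apart from the rest, 4 had one, and chance gives about 1 in 20. For the members' mean log2 level, the highest of 6 female VTA libraries of ELS with STVS was at 9.505, and the next was at 9.376. The highest of 6 male HIP libraries of defeat after standard rearing was at 9.42, with the next at 9.311. The highest of 6 male NAc libraries of late ELS with defeat was at 9.662, with the next at 9.536. For Mrps33, the highest of 5 female VTA libraries of STVS after standard rearing had 1389 normalised reads, and the next had 1229. In 21 checks, on the members' mean level and the genes shown by library, adult stress never moved every library after ELS one way and every library after standard rearing the other way.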

How the results depend on the processing

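No called difference of a named member changed sign under the alternatives run. Of the 45 members' medians, 12 did under at least 1 alternative, all of comparisons in which no member was called and all between -0.0252 and 0.0299. For HIP minus PFC, quantile normalisation gave 18 members higher and 14 lower. Unstressed standard-reared mice alone gave 6546 genes, with 17 members higher and 1 lower, for HIP minus PFC, 12 members lower for VTA minus NAc, 7 lower and a median of 0.1836 for VTA minus PFC, and 21 higher for NAc minus PFC. With no filter, VTA minus NAc called 19164 genes, since more were tested. Quantile normalisation gave a median of 0.0163 for ELS alone in male HIP (against -0.0252), -0.0154 for adult stress after ELS there and 0.0123 for ELS alone in male VTA. For stress, where no gene was called, no filter gave 1 gene for adult stress after ELS in female VTA and 1 for the early ELS interaction in male NAc. A pseudocount of 0.1 gave 1 gene for that interaction and 1 for late ELS history. Leaving out 1 library gave 0 to 35 genes for adult stress after ELS and 0 to 1 for ELS history in male PFC. In female NAc it gave 0 to 3 for ELS history. In male NAc it gave 0 to 1 for late ELS history, 0 to 1 for the early ELS interaction and 0 to 71 for late minus early ELS without defeat. No member was called in any of these, and the cause was not tested. Same-numbered libraries correlated weakly, with a mean correlation of 0.002 to 0.13 over the sets and negative pairs in each. Other pairs had means of -0.026 to 0, and in every set the same-numbered mean was the higher one. Whether a number marks a shared mouse or batch was not tested. With a replicate block, 28 members were higher and 6 lower for HIP minus PFC, the female NAc median after standard rearing was 0.0875, and no call of a named member was lost. Promoters from 150 bases before the start held the motifs in 11%, 13.7% and 13.7% of members (NRF1, GABPA, YY1), against 2.29%, 3.41% and 2.07% of all. Depth is unknown for male VTA, where no count test was possible.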
